A study of Mus musculus with 12 samples.

Results

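Genes of the major histocompatibility complex (MHC) and of antigen presentation were compared between the hippocampi of 6 MSN mice and those of 6 ICR mice, with 1 Affymetrix Mouse Gene 1.0 ST array per animal. MSN (Madison) is an inbred strain with a manic phenotype, whose ancestors were bred from ICR for high wheel running and later for maternal defense. ICR (hsd:ICR) is the outbred stock behind it. All mice were adult males, with no drug treatment described other than isoflurane anesthesia before tissue was taken. The strains were kept as separate colonies in 1 laboratory. With earlier results of these data known, the genes were chosen by a rule on their names. They are every gene whose platform symbol starts with H2-, together with B2m, Tap1, Tap2, Tapbp, Psmb8, Psmb9, Psmb10, Cd74 and Ciita, wherever a transcript cluster (a set of probes along a transcript) is annotated to that gene alone. This gave 38 genes of the 19938 with such a cluster, 34 of them on chromosome 17, where the mouse MHC lies. They comprise 20 class I heavy chain genes, 8 class II chain genes, 7 genes of the class I pathway, 2 of the class II pathway and H2-Ke6, which carries the prefix but encodes a hydroxysteroid dehydrogenase.

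Class I molecules consist of a heavy chain and beta-2 microglobulin and display peptides cut in the cytosol by the proteasome. The TAP transporter carries these peptides into the endoplasmic reticulum, where tapasin helps load them. Class II molecules pair an alpha with a beta chain, are guarded by the invariant chain until they reach endosomes, and there receive peptides with the help of the DM molecule. In brain, class I is made by neurons, glia and vessel cells, and class II mainly by microglia and by macrophages of the brain borders.

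The classical heavy chain genes H2-K1 and H2-D1 have no cluster of their own. They stand together with LOC547349 in a pair of clusters, and 8 clusters in all are annotated to several genes of which at least 1 is an H2- gene. These 8 were not counted among the 38 genes, and their signal cannot be assigned to 1 gene. They are described because the classical class I chains would otherwise be missing, and they were singled out after their values were seen. An intensity is the authors' PLIER value on a linear scale. It is set against the same cluster in other mice. Exceptions are the summed intensities of the marker lists, in which bright clusters weigh most, and a filter on mean intensity. Another is the level of class II genes beside the array medians.

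Promoters are shown for a gene of each of the shared clusters on which the results turn (H2-D1 and H2-T22), for the class I light chain gene and for a class II chain gene. Each window runs from 250 bases before to 50 after the RefSeq start site in GRCm38.p6, and capitals mark the motifs searched for, on both strands. The H2-D1 window is chr17:35262844-35263143 on the plus strand and H2-T22 is chr17:36042693-36042992 on the minus strand. The B2m window is chr2:122147437-122147736 on the plus strand and H2-Aa is chr17:34287774-34288073 on the minus strand.
H2-D1: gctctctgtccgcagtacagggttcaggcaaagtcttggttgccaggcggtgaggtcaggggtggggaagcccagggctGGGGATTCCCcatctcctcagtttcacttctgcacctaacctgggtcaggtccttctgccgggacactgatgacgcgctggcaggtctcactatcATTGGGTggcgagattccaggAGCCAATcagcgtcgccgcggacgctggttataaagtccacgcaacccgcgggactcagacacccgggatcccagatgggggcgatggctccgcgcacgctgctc
H2-T22: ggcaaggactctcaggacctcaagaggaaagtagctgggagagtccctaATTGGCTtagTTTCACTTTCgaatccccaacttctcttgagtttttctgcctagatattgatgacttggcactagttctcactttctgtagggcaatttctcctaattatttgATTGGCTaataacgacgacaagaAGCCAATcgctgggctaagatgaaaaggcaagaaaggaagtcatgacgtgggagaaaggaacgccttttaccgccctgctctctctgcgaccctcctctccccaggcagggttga
B2m: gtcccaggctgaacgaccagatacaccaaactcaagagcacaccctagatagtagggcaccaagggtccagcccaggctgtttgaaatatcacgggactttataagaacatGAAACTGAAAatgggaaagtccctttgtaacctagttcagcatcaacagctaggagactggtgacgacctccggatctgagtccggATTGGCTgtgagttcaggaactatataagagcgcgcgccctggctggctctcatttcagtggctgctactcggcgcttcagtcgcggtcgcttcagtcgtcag
H2-Aa: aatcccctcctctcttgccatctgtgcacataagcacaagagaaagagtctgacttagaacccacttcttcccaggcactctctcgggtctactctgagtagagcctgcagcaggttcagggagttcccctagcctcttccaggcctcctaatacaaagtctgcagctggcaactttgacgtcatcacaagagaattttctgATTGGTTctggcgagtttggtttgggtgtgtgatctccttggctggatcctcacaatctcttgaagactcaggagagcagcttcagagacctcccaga
The motifs were the Y box ATTGGNT, the X box core AGNAACAG, the interferon gamma element TTCNNNGAA, the interferon-stimulated response element (the letters GAAA, any 2 bases and GAAA again, as in the capitals nearest the 5′ end of the B2m window) and the kappa B site (the capitals nearest the 5′ end of the H2-D1 window). The kappa B letters of H2-D1 stand in 0.126% of the 27025 genes with a promoter window, and in 0 of the 15 class I, 6 class II and 6 class I pathway genes that have one. The H2-T22 and B2m windows hold the interferon-stimulated response element, found in 3.99% of all genes. It stands in 0 of 15 class I genes, 0 of 6 class II genes and 1 of 6 class I pathway genes (B2m). H2-T22 has no cluster of its own and is not counted there. The Y box letters stand in all 4 windows. Of the genes with a window they were found in 12 of 15 class I genes, 5 of 6 class II genes and 2 of 6 genes of the class I pathway, against 17.4% of all genes. Of those 12 class I genes 6 are H2-M10 genes, which form 1 family. The interferon gamma element stands in 2 of 15 class I genes (H2-M3 and H2-M11), 0 of 6 class II genes and 1 of 6 class I pathway genes (Psmb8), against 9.55% of all genes. The X box core stands in 0 of 15 class I genes, 1 of 6 class II genes (H2-Oa) and 0 of 6 class I pathway genes, against 8.63% of all genes. A match is a description of letters only.

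None of the 38 genes differed between MSN and ICR hippocampus at an adjusted p under 0.05 in limma, where 0.777% of the 23410 clusters tested were called (0.303% higher and 0.474% lower in MSN). At an unadjusted p under 0.05 there were 9 of the 38 (5 higher in MSN and 4 lower), or 23.7% against 12.7% of all clusters. The log2 fold change, MSN over ICR on the log2(intensity + 16) scale, lay between -0.24 and 0.28, with a median of -0.0074 over the 38 genes and -0.0079 over all clusters. The 95% confidence intervals of the 38 genes stayed between -0.43 and 0.43. The class I genes spread more widely around 0 than the class II genes: their median absolute log2 fold change was 0.11, against 0.054 for class II and 0.047 for all clusters. Class I genes also varied more within strains than most clusters. Their median SD was 0.112 in MSN and 0.106 in ICR mice, against 0.0868 and 0.0855 over all clusters. In class II it was 0.0842 and 0.116. The H2-Q genes are near copies and the H2-M10 genes 1 family, so class I values are not independent. At an unadjusted p under 0.05 limma had 7 of 20 class I genes (4 higher, 3 lower) and 1 of 8 class II genes (0 higher, 1 lower). The difference between the classes was not tested.

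**Figure D1:**
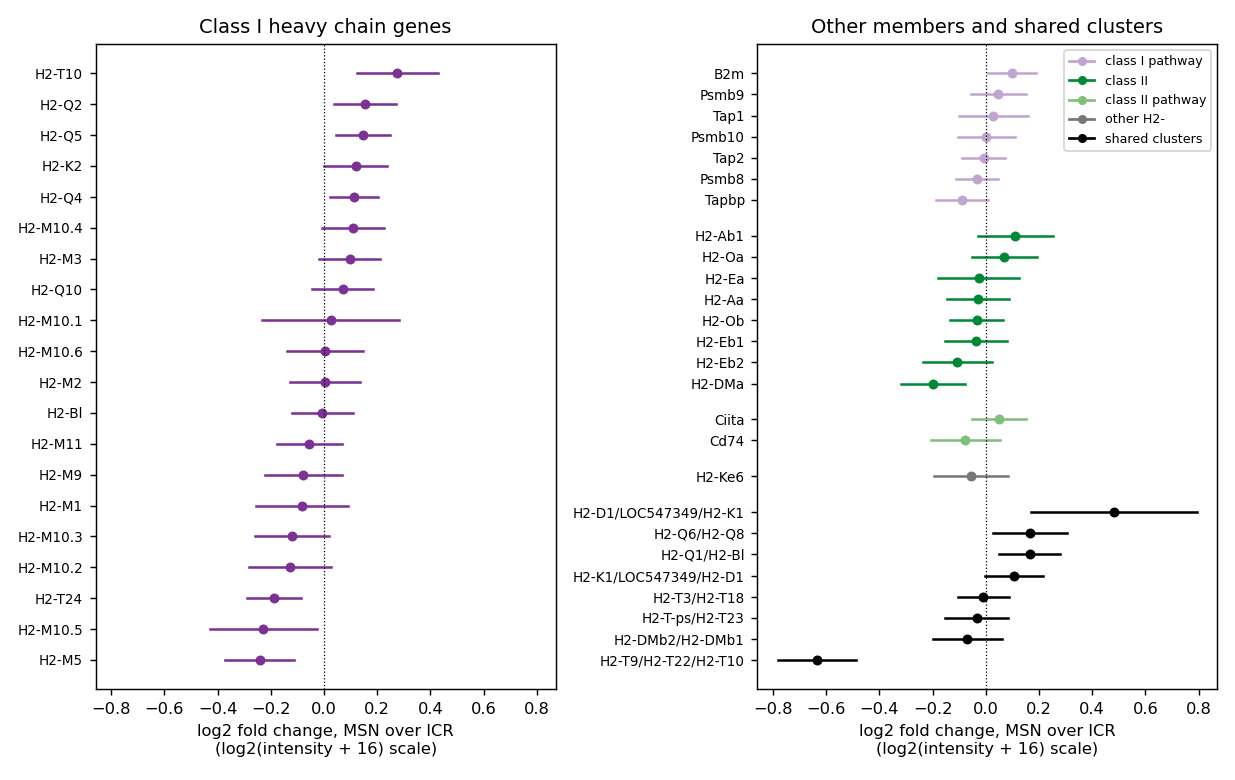
Log2 fold change of each gene and shared cluster, MSN over ICR on the log2(intensity + 16) scale, with 95% confidence intervals from limma (6 mice per strain). Class I heavy chain genes are on the left, and the other genes and the shared clusters (black) on the right. The shared cluster of H2-T9, H2-T22 and H2-T10 lies lowest, at -0.63, and that of H2-D1, LOC547349 and H2-K1 highest, at 0.48.

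The only H2 cluster called was the one shared by H2-T9, H2-T22 and H2-T10, nonclassical class I genes, of which T10 and T22 are ligands of gamma delta T cells. Its intensities were 202, 208, 167, 186, 210 and 218 in MSN replicates 1 to 6, against 348, 315, 354, 311, 290 and 283 in ICR replicates 1 to 6. Every MSN mouse lay below every ICR mouse. The strains did not overlap, in either direction, in 1.44% of all clusters. It fell by 0.63 on the log2 scale (standard error 0.0678, 95% confidence interval -0.78 to -0.49, adjusted p = 0.000975 from limma; two-sided exact permutation test, P-value = 0.00216, the smallest that 6 mice against 6 allow). Clusters lower in MSN and called made up 0.474% of those tested. The call held in each of the 9 other settings in which the cluster was tested and without each of the 12 arrays in turn. The cluster was 1 of 8 shared H2 clusters, and the other 7 did not pass.

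H2-T10, which also has a cluster of its own, pointed the other way there. In that cluster the MSN mice read 305, 390, 294, 340, 324 and 370 and the ICR mice 294, 293, 290, 241, 284 and 251. The strains did not overlap, but the lowest MSN value (294.2) and the highest ICR value (294.1) were nearly equal. MSN over ICR came to 0.28 on the log2 scale (standard error 0.0712, limma adjusted p = 0.0983; exact permutation test, P-value = 0.00216), short of the threshold. It was the only gene of the 38 without overlap, 2.63% of them against 1.44% of all clusters. The neighboring T gene H2-T24 read 161, 166, 168, 156, 157 and 187 in MSN mice, against 207, 177, 184, 191, 193 and 194 in ICR mice. Only MSN replicate 6 reached into the ICR range (log2 fold change -0.19, standard error 0.0471, adjusted p = 0.0854 from limma). It passed without MSN replicate 6 (adjusted p = 0.0350) and with array weights (adjusted p = 0.0440).

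H2-M5, a class I gene of the M region, had the lowest log2 fold change of the 38. It read 113, 136, 131, 129, 107 and 127 in MSN mice and 157, 165, 140, 135, 158 and 142 in ICR mice, so that 5 MSN mice lay below all ICR mice. The log2 fold change was -0.24 (standard error 0.0607, adjusted p = 0.0862 from limma), and it passed with quantile normalization alone (adjusted p = 0.0391). None of the 12 H2-M genes passed in limma, and 2 had an unadjusted p under 0.05, H2-M5 and H2-M10.5. Over all clusters the shares were 0.777% and 12.7%. The H2-M genes include the H2-M10 genes, known from sensory neurons of the vomeronasal organ, and H2-M3, which presents formylated bacterial peptides (log2 fold change 0.096, adjusted p = 0.490). Their log2 fold changes ran from -0.24 to 0.11.

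The H2-Q genes all had log2 fold changes above 0. H2-Q5 read 243, 273, 237, 229, 226 and 251 in MSN mice and 226, 203, 231, 222, 205 and 222 in ICR mice, and the log2 fold change was 0.15 (standard error 0.0480, adjusted p = 0.206 from limma). In H2-Q2, 4 of 6 MSN mice lay above all ICR mice (range 397 to 496 in MSN, 360 to 425 in ICR; adjusted p = 0.246). H2-Q4 was at 0.11 and H2-Q10, a secreted class I protein of liver, at 0.069. Limma called 0 of these 4 genes, and 3 had an unadjusted p under 0.05. Over all clusters the shares were 0.777% and 12.7%. The shared clusters that hold other Q genes were at 0.17 for H2-Q1 with H2-Bl and at 0.17 for H2-Q6 with H2-Q8 (adjusted p = 0.200 and 0.294). The Q genes are near copies, so their values may rest in part on the same transcripts. The remaining class I genes, H2-K2 and H2-Bl, were at 0.12 and -0.0061.

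**Figure D2:**
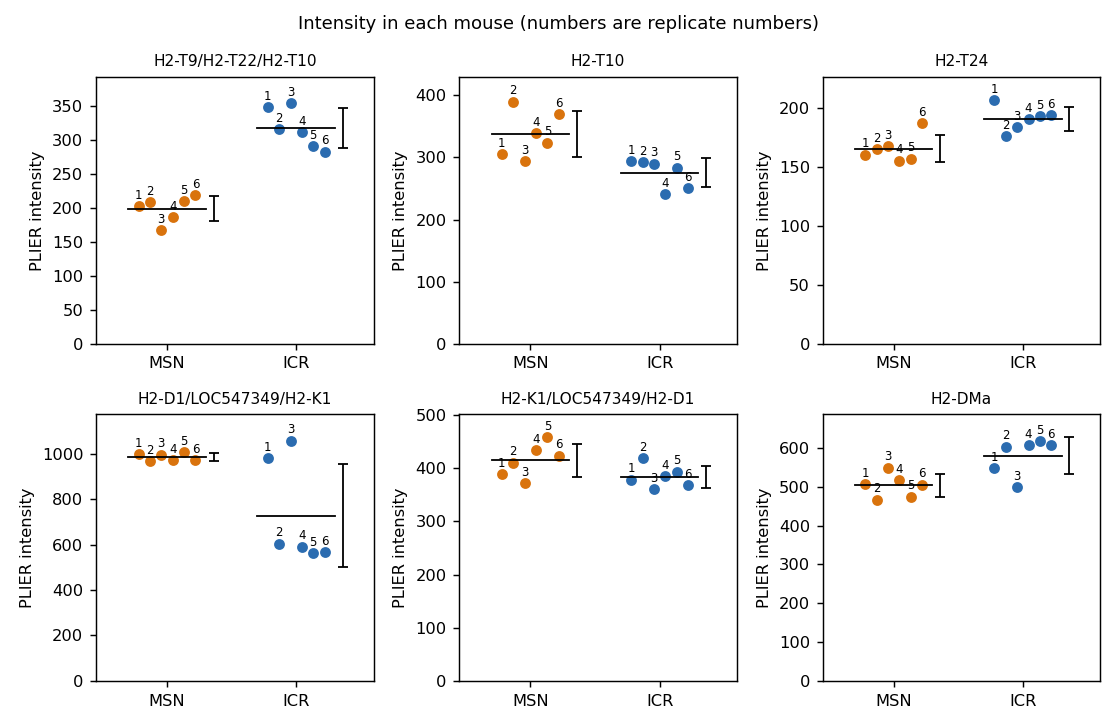
PLIER intensity (linear axis from 0) of 3 shared clusters, H2-T10, H2-T24 and H2-DMa in each mouse, MSN in orange and ICR in blue. Lines are means, bars are SDs over 6 mice, and numbers are replicate numbers. In the H2-D1/LOC547349/H2-K1 cluster ICR replicates 1 and 3 lie with the MSN mice at 980 and 1058, and the other ICR mice lie at 564 to 605.

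The cluster of H2-D1, LOC547349 and H2-K1, which stand for classical class I heavy chains, was nearly the same in every MSN mouse and not in ICR mice. The MSN mice read 997, 968, 996, 973, 1008 and 971. ICR replicates 1 to 6 read 980, 605, 1058, 591, 564 and 566, so that replicates 1 and 3 lay within or above the MSN range and the other 4 ICR mice well below it. On the log2 scale the SD was 0.0241 in MSN and 0.412 in ICR mice, a ratio of ICR to MSN of 17.1 that was the 4th highest of the 23410 clusters. The strain means were 985 ± 16.8 in MSN and 727 ± 228 in ICR mice (SD, n = 6 each). They stood apart by 0.48 on the log2 scale (standard error 0.145, limma adjusted p = 0.163; exact permutation test, P-value = 0.0541). It passed without ICR replicate 3 (adjusted p = 0.0314). That array had the lowest mean correlation with its own strain, 0.993 in a range of 0.993 to 0.997 over all arrays.

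ICR replicates 1 and 3 also stood together in several other clusters of the complex, chosen here after their values were seen. How often this pair stands together over all clusters was not counted, so the list is a description only. In H2-Q10 they lay at opposite ends, with replicate 1 the highest ICR mouse (172) and replicate 3 the lowest (137). In H2-Ke6 the MSN mice read 523 to 596 and the ICR mice 499, 658, 499, 622, 593 and 583, with replicates 1 and 3 the lowest ICR mice, as they were in H2-DMa, a chain of the DM molecule. H2-T23 encodes Qa-1, a ligand of natural killer cell receptors. In its shared cluster the MSN mice read 355 to 385 and the ICR mice 423, 369, 422, 356, 332 and 382, with replicates 1 and 3 highest. They were the highest ICR mice too in H2-K2 (348 to 424 in MSN mice and 367, 338, 384, 335, 309 and 338 in ICR mice) and in the H2-T9, H2-T22 and H2-T10 cluster. The second cluster of the classical chains, annotated to H2-K1, LOC547349 and H2-D1, had no such gap. It read 390, 411, 372, 434, 459 and 424 in MSN mice and 379, 419, 361, 385, 394 and 368 in ICR mice (log2 fold change 0.11, adjusted p = 0.415).

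**Figure D3:**
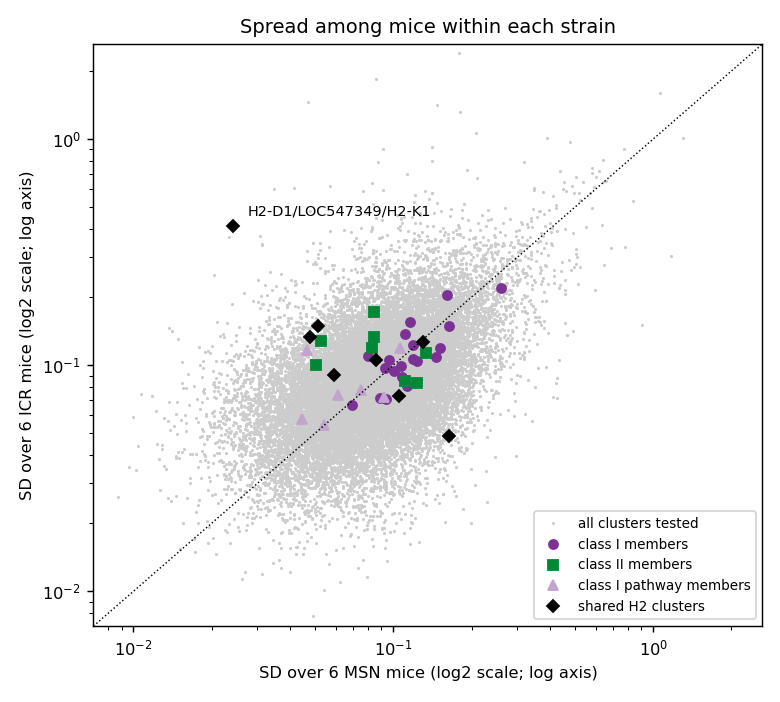
SD of log2(intensity + 16) over the 6 MSN mice (horizontal) and over the 6 ICR mice (vertical), both on log axes, for all 23410 clusters (gray) and the genes of antigen presentation. Points on the dotted line have equal SDs. The cluster of H2-D1, LOC547349 and H2-K1 lies far above the line, at 0.0241 in MSN and 0.412 in ICR mice.

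Over the 38 genes the spread was alike in both strains. The median ratio of the ICR SD to the MSN SD was 1.02 over these genes and 0.9995 over all clusters, and the ICR SD was the larger in 20 of 38 genes. It was the larger in 7 of 20 class I genes and in 5 of 8 class II genes, with median ratios of 0.915 and 1.51. Of all clusters 49.97% had the larger SD in ICR mice. Within class II the ratio was highest in H2-Aa (2.43), H2-Ea (2.04) and H2-Ob (1.99). It was below 1 in H2-Ab1 (0.847), H2-Eb1 (0.766) and H2-Oa (0.679). High ratios were not confined to class II. Psmb10 (2.49) and H2-Ke6 lay above H2-Aa, as did the shared cluster of H2-T23 (2.79). These are descriptions without a test.

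Among the genes that supply class I molecules, limma called 0 of 7, against 0.777% of all clusters. An unadjusted p under 0.05 was found in 1 of 7, against 12.7% of all clusters. That was B2m, the light chain of all class I molecules, which read 5194, 4615, 4692, 4997, 4886 and 4835 in MSN mice and 4767, 4849, 4516, 4593, 4226 and 4383 in ICR mice. Of the MSN mice 3 lay above all ICR mice, and the log2 fold change was 0.096 (95% confidence interval 0.0063 to 0.19, adjusted p = 0.355 from limma). Tapbp, which encodes tapasin, read 443 to 517 in MSN and 479 to 567 in ICR mice, with -0.090 as the log2 fold change (adjusted p = 0.436). Tapbp also stands in 2 clusters shared with Rps3a1, which pointed the other way at 0.042 and 0.054 (limma adjusted p = 0.718 and 0.651). The transporter genes Tap1 and Tap2 were at 0.028 and -0.0086. The immunoproteasome subunit genes Psmb8, Psmb9 and Psmb10 were at -0.033, 0.046 and 0.0018. For these 5 genes the 95% confidence intervals lay between -0.11 and 0.16.

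Of the class II chain genes limma called 0 of 8, against 0.777% of all clusters. An unadjusted p under 0.05 was found in 1 of 8, against 12.7% of all clusters. The lowest P-value belonged to H2-DMa, which read 506, 467, 550, 518, 475 and 506 in MSN mice and 547, 603, 499, 608, 617 and 608 in ICR mice. All but ICR replicates 1 and 3 lay above every MSN mouse, and the log2 fold change was -0.20 (standard error 0.0562, limma adjusted p = 0.140). The gene passed without ICR replicate 3 (adjusted p = 0.0363). Its partner genes share a cluster (H2-DMb2 with H2-DMb1), which was at -0.069 (adjusted p = 0.685). H2-Oa and H2-Ob, the chains of the DO molecule that tempers DM, were at 0.070 and -0.034.

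The strains overlapped in each of the chains that hold peptide at the cell surface. All of these chains read below the array medians of 373 to 389. Some olfactory receptor genes read at a like level, such as Olfr91 (means of 217 in MSN and 234 in ICR mice). Without detection calls, whether these chains are expressed above background here was not tested. H2-Ab1, the A beta chain, read 186, 194, 181, 147, 163 and 168 in MSN mice and 164, 146, 160, 177, 140 and 167 in ICR mice (log2 fold change 0.11, 95% confidence interval -0.030 to 0.25, adjusted p = 0.522). H2-Aa, the A alpha chain, read 116 to 129 in MSN and 107 to 144 in ICR mice (log2 fold change -0.031, adjusted p = 0.855). H2-Eb1, the E beta chain, read 196 to 242 in MSN and 206 to 241 in ICR mice (log2 fold change -0.038, adjusted p = 0.814). H2-Ea and H2-Eb2 were at -0.028 and -0.11, with adjusted p of 0.907 and 0.497.

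Cd74, the invariant chain, read 124, 137, 112, 118, 131 and 136 in MSN mice and 147, 136, 122, 127, 123 and 152 in ICR mice. The log2 fold change was -0.077 (95% confidence interval -0.21 to 0.052, adjusted p = 0.647), and the strains overlapped. Ciita, the coactivator that switches on class II genes, was at 0.049 (adjusted p = 0.712). Neither gene passed in the settings tried, and both read below the array medians.

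**Figure D4:**
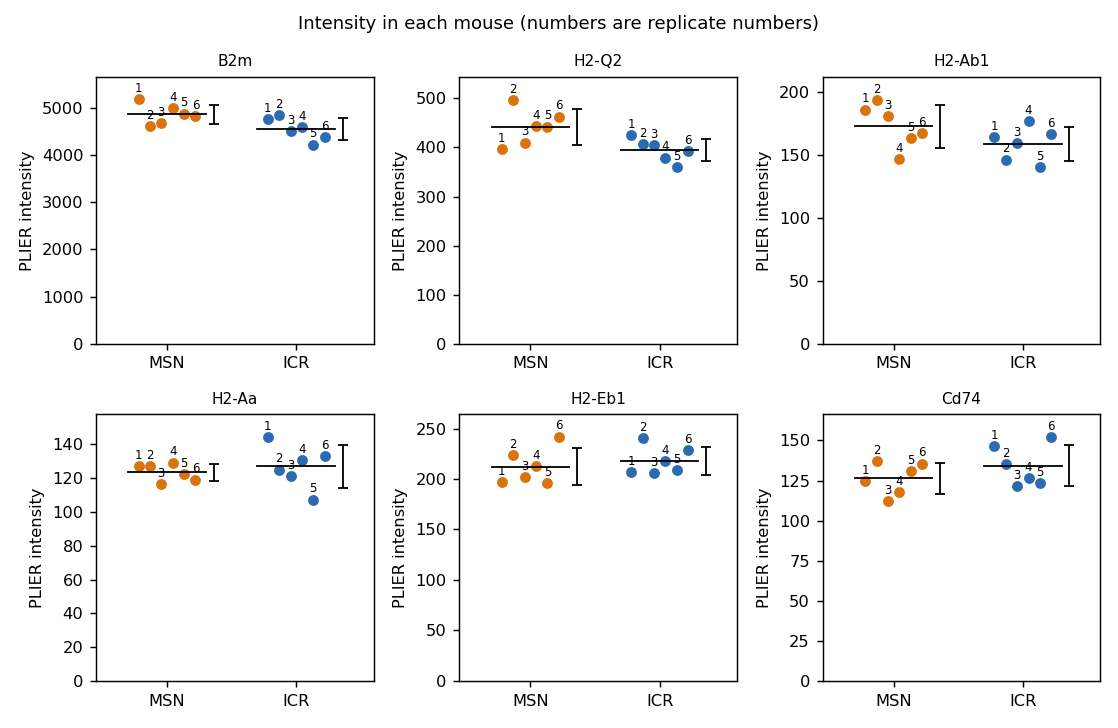
PLIER intensity (linear axis from 0) of B2m, H2-Q2, the class II chain genes H2-Ab1, H2-Aa and H2-Eb1, and Cd74 in each mouse, MSN in orange and ICR in blue. Lines are means, bars are SDs over 6 mice, and numbers are replicate numbers. The strains overlap in all 6 genes.

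Chain genes and their partners were correlated across the 12 mice in 4 pairs. H2-Aa and Cd74 had r = 0.570 (permutation P-value = 0.0514, adjusted over the 4 pairs 0.155) and rho = 0.510 (P-value = 0.0942, adjusted 0.132). H2-Eb1 and Cd74 had r = 0.481 (permutation P-value = 0.114, adjusted 0.155) and rho = 0.503 (P-value = 0.0989, adjusted 0.132). H2-Ab1 and Cd74 had r = 0.0705 (permutation P-value = 0.825, adjusted 0.825) and rho = 0.189 (P-value = 0.554, adjusted 0.554). The H2-K1/LOC547349/H2-D1 cluster and B2m had r = 0.478 (permutation P-value = 0.116, adjusted 0.155) and rho = 0.608 (P-value = 0.0406, adjusted 0.132). No pair passed after adjustment. Without the pair of mice farthest from the median of the partner gene (n = 10), r was 0.461, 0.336, 0.287 and 0.788. The order is H2-Aa, H2-Eb1, H2-Ab1 and H2-K1. Their permutation P-values were 0.175, 0.338, 0.418 and 0.00757, not adjusted over the pairs. Within MSN mice r was 0.159, 0.525, 0.252 and 0.114 in the same order, and within ICR mice 0.730, 0.378, 0.294 and 0.373, with exact permutation P-values from 0.0931 to 0.831. No correlation was computed for the H2-D1/LOC547349/H2-K1 cluster and B2m, a choice made after the ICR values of that cluster were seen to lie in separate ranges.

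Other genes of the pathway gave no call either. Limma called 0 of 14 genes of class I folding and peptide supply, 0 of 10 of class II processing, 0 of 20 of MHC transcription and interferon signaling, 0 of 18 interferon-induced genes and 0 of 10 class I receptors and relatives. Of these lists 1, 3, 2, 3 and 0 genes had an unadjusted p under 0.05, in that order. Over all clusters 0.777% were called and 12.7% had such an unadjusted p, so lists of this size would often hold no call. The strains did not overlap in 1 of 10 genes of class II processing (10%) and 1 of 18 interferon-induced genes (5.56%). The share over all clusters was 1.44%. Ifi30, the thiol reductase that unfolds antigens in endosomes, had a log2 fold change of 0.18 (300 ± 16.8 in MSN and 264 ± 18.0 in ICR mice; SD, n = 6 each; adjusted p = 0.130 from limma). The median of the interferon-induced genes was -0.016, close to the -0.0079 of all clusters.

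Around the H2- genes on chromosome 17, limma called 3 of 124 genes that lie between the outermost of them and are not members, where 0.777% of all clusters were called. Ier3, an immediate early gene, read 216 ± 20.1 in MSN and 267 ± 10.5 in ICR mice (SD, n = 6 each) and fell by 0.29 as log2 (limma adjusted p = 0.0238). The uncharacterized gene 2310061I04Rik read 715 ± 25.8 in MSN and 833 ± 43.2 in ICR mice and fell by 0.21 (adjusted p = 0.0238 from limma). Rpp21, a subunit of ribonuclease P, read 421 ± 25.1 in MSN and 332 ± 34.7 in ICR mice and rose by 0.33 (adjusted p = 0.0292 from limma). The median of the 124 genes was -0.0090. At an unadjusted p under 0.05 there were 20 of 124, or 16.1% against 12.7% of all clusters. The strains did not overlap in 6 of 124, or 4.84% against 1.44% of all clusters.

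The markers of cells that carry MHC molecules were measured on the same arrays. In tissue, fewer cells of a type and less RNA per cell cannot be told apart. Over all clusters 0.777% were called and 12.7% had an unadjusted p under 0.05. Of 10 microglia markers limma called 0 (2 at an unadjusted p under 0.05), with summed intensities of 7175 to 8594 in MSN and 6769 to 8082 in ICR mice. Of 11 markers of border macrophages and dendritic cells it called 0 (1 at an unadjusted p under 0.05), and 10 were below 0, with sums of 2431 to 2783 in MSN and 2623 to 2984 in ICR mice. Of 10 lymphocyte markers and 9 endothelial markers it called 0 and 0 (0 and 1 at an unadjusted p under 0.05). Lymphocyte sums were 1681 to 1929 in MSN and 1737 to 1896 in ICR mice, and endothelial sums were 7708 to 9131 in MSN and 8052 to 8412 in ICR mice. Limma also called 0 of 7 neutrophil and red blood cell, 7 astrocyte, 7 choroid plexus, 8 meninges and 9 hippocampal neuron markers, with 1, 4, 0, 0 and 2 at an unadjusted p under 0.05. All 7 choroid plexus markers were above 0 (median log2 fold change 0.30), with sums of 9158 to 22339 in MSN and 7546 to 22371 in ICR mice. Of the astrocyte markers 6 of 7 were below 0 (median -0.087), among them Gfap at -0.30 and Aqp4 at -0.23. Aldh1l1 was above 0, at 0.19. Of the 4 astrocyte markers with an unadjusted p under 0.05, 1 was higher and 3 lower in MSN. Slc1a2, at -0.11, did not overlap between the strains, but its highest MSN value (8765) and lowest ICR value (8766) were nearly equal. It was the only astrocyte marker without overlap, or 14.3% of the 7, against 1.44% of all clusters. Astrocyte sums were 28117 to 30735 in MSN and 30372 to 32242 in ICR mice. Meninges sums were 8326 to 12399 in MSN and 9972 to 12231 in ICR mice, with 6 of 8 markers below 0, and neutrophil and red blood cell sums were 1110 to 1365 in MSN and 1123 to 1250 in ICR mice. Hippocampal neuron markers summed to 45852 to 48837 in MSN and 45082 to 48943 in ICR mice. The part of these cells in the values above was not tested.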

How the data were processed

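Hippocampal RNA of 6 MSN and 6 ICR mice was hybridized to 12 arrays. Each deposited value is an intensity on a linear scale, summarized by the authors with PLIER after correcting background by GC bin (Affymetrix Power Tools 1.12.0), and was used as given. Array medians were 373 to 389 over the 23410 clusters with a gene. No detection calls were used, sequence differences between the mice at the probes were not measured, and precision is limited by there being 12 arrays. For the tests 16 was added, log2 was taken, and limma 3.58.1 in R 4.3.3 was fitted with strain as the only term, MSN minus ICR, with Benjamini-Hochberg adjustment over those 23410 clusters and a threshold of 0.05. All adjusted p not otherwise named are from this fit, which was tested on simulated data. Single genes were also compared by an exact permutation test over 924 splits, and correlations by 100000 resamples. Each of the 38 genes had a single cluster annotated to it alone, so no choice between such clusters arose. All 38 matched a RefSeq gene by gene ID, and 28 had a RefSeq promoter. Of the genes on the pathway and marker lists, 17 had no cluster of their own and were left out.

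Members and lists were chosen with earlier results of these data known. Genes named in full are called members, B2m, H2-Aa, H2-Ab1, H2-Eb1, Cd74, the clusters of H2-K1 and H2-D1, and the 4 smallest P-values among the others of class I, class II and the class I pathway, with called genes of the other lists. Further genes were named after their values were seen. Alternatives were linear values without a log, pseudocounts of 1 and 64, quantile normalization or scaling to 1 median, trended and robust eBayes, array weights, other sets of clusters tested (those above the median mean, those without a gene too, or 1 for each gene), a block on replicate numbers, and the omission of single arrays. For the shared clusters they were chosen after seeing the data.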

Additional observations from a re-analysis of the deposited data

Results flagged for a closer look

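In a group of 6 mice, a value was marked where its gap to the nearest other mouse was a larger part of the range than Dixon's 95% critical value. Of 92 groups (46 clusters in each strain), 4 held such a value, and chance marks about 1 in 20 groups. H2-Q1/H2-Bl read 897 in MSN replicate 2 and 763 to 803 in the other MSN mice. Tap2 read 258 in MSN replicate 4 and 277 to 289 in the others. In ICR replicate 1, H2-M10.1 read 136, against 193 to 219 in the other ICR mice, and H2-Q10 read 172, against 137 to 147.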

How the results depend on the processing

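Limma called 0 of the 38 genes, and other settings gave 0 or 1. Quantile normalization gave 1 (H2-M5) and array weights 1 (H2-T24), both class I and lower in MSN. Without 1 array the count was 0 to 1 over all 38 genes, 0 to 1 in class I (H2-T24 without MSN replicate 6), 0 to 1 in class II (H2-DMa without ICR replicate 3) and 0 in the class I pathway. The count of called shared H2 clusters was 1, and without 1 array 1 to 2, the second being H2-D1/LOC547349/H2-K1 without ICR replicate 3. With clusters above the median mean only, 3 shared clusters were tested and 0 called, since that of H2-T9, H2-T22 and H2-T10 is dimmer. Only 6 of the 38 genes passed this filter, with 1 in class I and 1 in class II, so that the class medians were 0.15 and -0.20. In the unfiltered fit they were 0.0026 and -0.032. Signs turned without ICR replicate 1 for H2-Aa (left-out range -0.072 to 0.0032) and without ICR replicate 6 for Tap1 (-0.016 to 0.058). 
Replicate numbers did not pair the mice: correlations of same-numbered deviations ran from -0.126 to 0.125, and 3 of 12 arrays correlated best with their own number. With the replicate block 42 of all clusters were called (15 higher and 27 lower in MSN), against 182 without it. Of the 38 genes 0 were called, and the H2-T9, H2-T22 and H2-T10 cluster kept an adjusted p of 0.0255, the highest in a range of 0.000159 to 0.0255 over all settings and left-out arrays. The alternative of another cluster per gene was not run, since each gene had 1 of its own.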

Other observations

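Over the 20 class I genes, MSN replicate 2 was the highest MSN mouse in 8 and MSN replicate 6 in 9, while neither was the lowest in any. Over the 8 class II genes, MSN replicate 6 was the highest MSN mouse in 4 and MSN replicate 5 the lowest in 4. Among ICR mice, replicate 1 was the highest in 8 of the 20 class I genes, and replicate 5 was the lowest in 5 of 20 class I and 5 of 8 class II genes. How often each mouse is the highest or lowest over all clusters was not counted. MSN replicates 2 and 6 were also the highest MSN mice in some genes that are no members, such as Olfr101 and Olfr109. The pattern is therefore not shown to be particular to MHC genes. H2-Q6/H2-Q8, which belong to the Qa-2 genes, share a cluster that varied more in MSN than in ICR mice. It read 277, 361, 279, 258, 270 and 303 in MSN mice and 253, 261, 259, 271, 247 and 248 in ICR mice, with a ratio of the ICR SD to the MSN SD of 0.295. These are values without a test.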
